A study of Mus musculus with 4 samples.

Results

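The insulin-like growth factors (IGFs), their receptors and their binding proteins were followed in ureter explants that were taken from E12.5 embryos of the NMRI mouse strain (wild type) and cultured for 18 h. Treated explants received 10 µM IWP-2, an inhibitor of Porcupine, the enzyme that lipid-modifies WNT ligands for secretion, and control explants received its solvent DMSO. Each of 4 arrays of the 2-colour Agilent type carried RNA of 1 pool of treated ureters against RNA of 1 pool of control ureters, with the treated RNA in red (AlexaFluor647) on arrays 1 and 3 and in green (AlexaFluor555) on arrays 2 and 4. No transgene or deletion was involved, and since a pool holds whole ureters, mesenchyme and epithelium were measured together.

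The members were taken by gene name, as all probes that the array design assigned to Igf1, Igf2, Igf1r, Igf2r, Igfbp2, Igfbp3, Igfbp4, Igfbp5, Igfbp6 or Igfbp7. These are 10 of the 22455 genes tested and 16 of the 39429 gene probes on the array. All 10 genes passed the filter on dim probes, and the probe that stood for each of them was well above background in both channels on 4 of 4 arrays. Igf1 had 5 probes, Igfbp2 and Igfbp3 had a pair each, and the other members had a single one.

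IGF1 and IGF2 are secreted peptides that drive growth and survival through the receptor tyrosine kinase IGF1R, whose signal runs through IRS and SHC adaptors to the PI3K-AKT and MAPK pathways. IGF2R, the cation-independent mannose 6-phosphate receptor, takes up IGF2 and delivers it to lysosomes. The IGF binding proteins hold the ligands outside the cell, prolong their half-life, and release them when proteases cut the carrier. Mesenchyme of embryonic organs is a well known site of IGF and IGF binding protein expression.

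The oligonucleotides on the array are 60 bases long, and the first 30 bases of those on which the binding protein results rest are shown so that the paralogues can be told apart by eye. Positions are those of the scanner files (mm9), at chr1:72904829-72904888 (minus strand) for Igfbp5, chr1:72898813-72898872 (plus strand) for Igfbp2 and chr11:7106594-7106653 (minus strand) for Igfbp3.
Igfbp5: cacatcacatattactgtagctctctatag
Igfbp2: aggagttcccagttttgacacatgtattta
Igfbp3: gcagttttccaaaaacacagatttcttttc
Igfbp4: gagaagagaaacctcattcttggagtgaga
Over the full length of the oligonucleotides, the longest run of letters that probes of different members shared was 8 bases in 108 pairs of probes. The probes of different members were therefore distinct from each other, but they were not compared with the transcripts of the other members. Igfbp2 and Igfbp5 are neighbours, with 0 annotated genes between them on chromosome 1 in RefSeq (GRCm38.p6), as are Igfbp1 and Igfbp3 on chromosome 11.

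Of the 10 members, 4 were higher in IWP-2 treated ureters (Igf1, Igfbp2, Igfbp3 and Igfbp5) and 2 were lower (Igf2 and Igf2r) at a limma adjusted p under 0.05. Igf1 is counted here by its brightest probe, while the mean over its probes gave -0.02 (limma adjusted p = 0.734). Across all genes tested, 18.1% were higher and 15% were lower by the same rule, so that a large part of the transcriptome passed the test and a call alone did not set a gene apart. The median change of the members was 0.17 on the log2 scale, against a median near 0 over all genes (0.001). This member median takes Igf1 by its brightest probe and would be lower with the mean over its probes. The median size of change over all genes was 0.10 and the median SD between arrays was 0.11. All changes are log2 ratios of treated over control after background correction and loess normalisation, given with their SD over the arrays (n = 4), and the 95% intervals from limma are not adjusted for the number of genes. The arrays count as replicates by their labels, which do not say how the pools were drawn, so that the p-values measure the spread between these arrays. In whole explants, fewer cells of a type and less RNA per cell cannot be told apart.

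**Figure D1:**
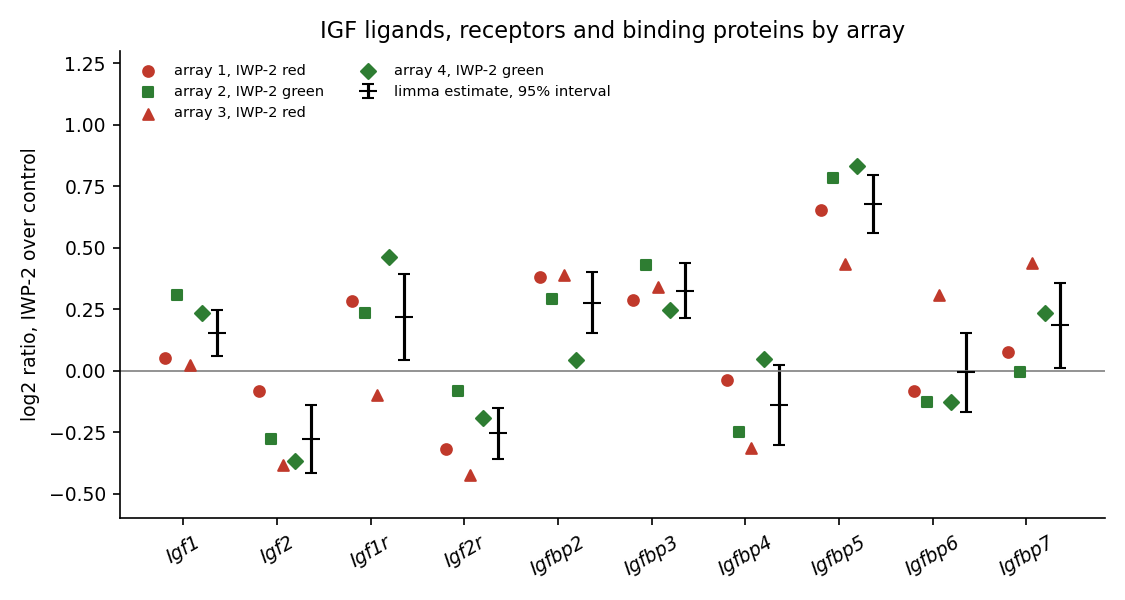
Log2 ratio of IWP-2 over control (y axis) for the 10 members (x axis), with a point for each of the 4 arrays, red where the treated RNA was red and green where it was green, and the limma estimate with its 95% interval as a bar beside the points. Igfbp5 runs from 0.43 to 0.83 and sits highest on arrays 1, 2 and 4, with Igfbp7 beside it on array 3 (0.44 and 0.43), while the points of Igf2 and Igf2r all lie under 0. The interval is computed after a dye term and can be narrower than the spread of the points.

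Igfbp5, an extracellular carrier that also binds to matrix, showed the largest change of the 10 members. The control channel read 15.99, 16.19, 16.34 and 16.00 on arrays 1 to 4 (log2 intensity) and the treated channel 16.64, 16.98, 16.77 and 16.83, so that all treated values lay above all control values. The ratios were 0.65, 0.78, 0.43 and 0.83, a mean increase of 0.68 ± 0.18 (SD, n = 4, 95% interval 0.56 to 0.79, limma adjusted p = 0.000305), which is a 1.60-fold rise. Of all genes tested, 0.650% had a larger increase. The mean was 0.54 on the arrays with treated RNA in red and 0.81 on those with it in green. The dye term of the gene had a limma p of 0.033 before and 0.231 after adjustment. Since this term passed for 0 of all genes tested, the adjusted value does not exclude a dye effect on Igfbp5.

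Igfbp3, the main carrier of IGFs in the circulation and also made locally in tissues, rose to a smaller extent. Its control levels were 14.06, 13.79, 14.04 and 14.10 and its treated levels 14.34, 14.22, 14.38 and 14.35, again without overlap. The increase was 0.33 ± 0.08 (95% interval 0.21 to 0.44, adjusted p = 0.00336), with ratios from 0.25 to 0.43, and the means of both dye orientations were nearly equal (0.31 and 0.34). A second probe, which the design assigns to another transcript of the gene, gave 0.30 ± 0.16 (adjusted p over all probes = 0.0145).

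Igfbp2, a carrier with a preference for IGF2, rose too. Control levels were 12.57, 12.78, 12.92 and 13.09, treated levels were 12.95, 13.07, 13.31 and 13.14, and the ranges overlapped between arrays although the treated channel was higher within each array. The ratios were 0.38, 0.29, 0.39 and 0.045, with a mean of 0.28 ± 0.16 (95% interval 0.15 to 0.40, adjusted p = 0.00854). The second Igfbp2 probe, at chr1:72898677-72898736, gave 0.29 ± 0.15 with the same low value on array 4 (0.073). This call was lost when the channels were compared without pairing them by array (adjusted p = 0.120) and in the table of fold changes deposited with the series (adjusted p = 0.112).

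The other binding proteins did not pass the test. Igfbp4, which holds IGFs back until PAPPA cuts it, had ratios of -0.04, -0.25, -0.32 and 0.05 (mean -0.14 ± 0.17, 95% interval -0.30 to 0.03, adjusted p = 0.167). Its change was -0.06 without array 2, -0.07 without array 3, -0.21 without array 1 and -0.21 without array 4. Igfbp7, a protein of low IGF affinity, had ratios of 0.07, -0.01, 0.44 and 0.23 (mean 0.18 ± 0.20, 95% interval 0.01 to 0.36, adjusted p = 0.0938). It passed when array 1 was left out (0.28, adjusted p = 0.0281) but was 0.09 without array 3 (adjusted p = 0.361). Igfbp6, a carrier that prefers IGF2, had 3 values below 0 and 0.31 on array 3, with a mean of -0.01 ± 0.21 (95% interval -0.17 to 0.15, adjusted p = 0.95). Control levels were 12.63 to 13.04 for Igfbp4, 7.58 to 7.78 for Igfbp6 and 8.70 to 8.89 for Igfbp7. For Igfbp6 and Igfbp7, the offset of the background correction draws small ratios of dim spots towards 0. Levels of different probes are not comparable, since each probe binds with its own strength.

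**Figure D2:**
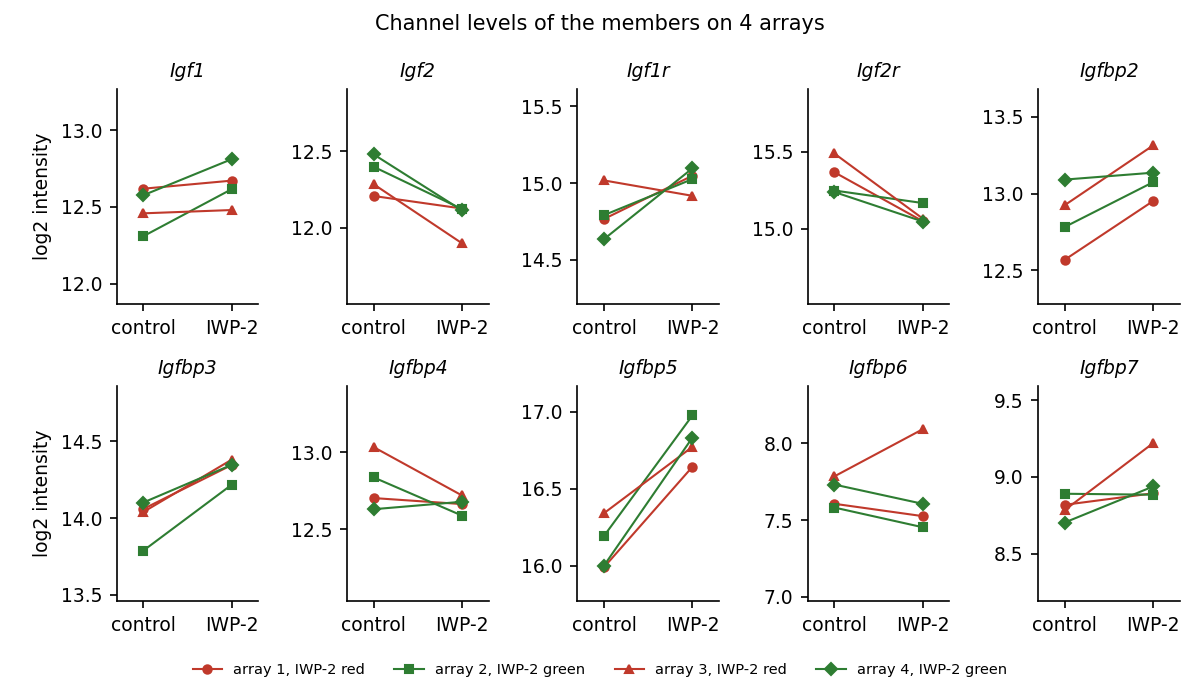
Log2 intensity (y axis, own range in each panel, same span) in the control and the IWP-2 channel for each of the 10 members, with the 2 channels of an array joined by a line, red where the treated RNA was red and green where it was green. All 4 lines rise for Igf1, Igfbp2, Igfbp3 and Igfbp5 and all 4 fall for Igf2 and Igf2r, whereas lines run in both directions for Igf1r, Igfbp4, Igfbp6 and Igfbp7.

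The paralogues were then compared with each other within each array, as the difference between their log2 ratios. Of 15 pairs of Igfbp2 to Igfbp7, 9 differed in 1 direction on all 4 arrays and 5 had a 95% interval of the difference without 0. These are t intervals over the 4 arrays, not from limma, and are not adjusted for the 15 pairs. The share of other gene pairs with such differences was not computed, so the counts do not set these paralogues apart. With 4 arrays the exact sign-flip permutation test cannot go below p = 0.13 (two-sided), and the smallest value adjusted over the 15 pairs was 0.208, so that no pair could pass. The widest gap was that of Igfbp4 and Igfbp5, at -0.81 ± 0.15 (Igfbp4 minus Igfbp5, 95% interval -1.05 to -0.58), with a more negative ratio for Igfbp4 on every array (-0.69, -1.03, -0.75 and -0.78). Igfbp5 also lay above Igfbp6 by 0.68 ± 0.38 (0.07 to 1.29), and Igfbp3 lay above Igfbp4 by 0.46 ± 0.24 (0.08 to 0.85). Igfbp3 minus Igfbp5 was -0.35 ± 0.20 (-0.67 to -0.03), and Igfbp6 minus Igfbp7 was -0.19 ± 0.11 (-0.37 to -0.01).

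Igfbp2 and Igfbp3 could not be separated. Their difference was -0.05 ± 0.14 (95% interval -0.28 to 0.18, exact permutation p = 0.625), positive on 2 of 4 arrays, and the interval still allows a difference of nearly the size of either change. The neighbours Igfbp2 and Igfbp5 differed by -0.40 ± 0.32 (-0.90 to 0.11), with Igfbp5 higher on 4 of 4 arrays but an interval that holds 0. The number of pairs with 1 direction on all arrays depended on the normalisation and was 4 with the processed signals of the scanner software and 5 with median centring in place of loess.

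Among the ligands, Igf2, the main fetal growth factor of the family and expressed from the paternal allele in most embryonic tissues, fell at its probe (mm9 chr7:149839661-149839720, minus strand). Control levels were 12.21, 12.40, 12.28 and 12.48 and treated levels 12.13, 12.12, 11.90 and 12.11, without overlap. The ratios were -0.08, -0.28, -0.38 and -0.36, with a mean of -0.28 ± 0.14 (95% interval -0.42 to -0.14, adjusted p = 0.0134), which is 17.5% less signal. A lower value was found for 6.71% of all genes.

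Igf1, the growth hormone responsive ligand, passed the test at its brightest probe with a small increase. The control channel read 12.62, 12.31, 12.46 and 12.58 and the treated channel 12.67, 12.62, 12.48 and 12.81, with overlapping ranges. The ratios were 0.05, 0.31, 0.02 and 0.23 (mean 0.15 ± 0.14, 95% interval 0.06 to 0.25, adjusted p = 0.0262). The increase was 0.04 on the arrays with treated RNA in red and 0.27 on those with it in green. The call was lost when any 1 of the arrays was left out (adjusted p from 0.055 to 0.114), and the mean over the gene's probes gave -0.02 (adjusted p = 0.734).

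This change of sign came from the 5 Igf1 probes, which gave different ratios along the gene. In mm9 they lie on the plus strand of chromosome 10, and the first 30 bases of each are given here in transcript order, with the letters in capitals that lie in the stretch shared by probes 2 and 3.
Igf1 probe 1, chr10:87378456-87378515: aaccattaaaaacatgccaccaagaccttc
Igf1 probe 2, chr10:87393561-87393620: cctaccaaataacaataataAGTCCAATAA
Igf1 probe 3, chr10:87393581-87393640: AGTCCAATAACATTACAAAGATGGGCATTT
Igf1 probe 4, chr10:87395924-87395983: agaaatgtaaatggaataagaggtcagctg
Igf1 probe 5, chr10:87399581-87399640: ctcctgattgtatttgaagtggttattcaa
Probe 1 is assigned to NM_184052 and the others to NM_010512. Probes 2 and 3 share 40 of their 60 bases and are no separate measurements.

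Probe 1 did not pass the test (0.02 ± 0.14, adjusted p over all probes = 0.754). Probes 2 and 3 gave 0.15 ± 0.13 and 0.15 ± 0.14 (adjusted p of 0.0344 and 0.0270). Probe 4, downstream of them, gave -0.17, -0.22, -0.29 and -0.18 on arrays 1 to 4 (mean -0.21 ± 0.05, adjusted p = 0.0104). Probe 5, the most distal, gave -0.21, 0.005, -0.52 and -0.16 (mean -0.22 ± 0.22, adjusted p = 0.0344). Of the 16 member probes, 7 were thus higher, against 16.8% of all probes tested, and 4 were lower, against 15.9%. The 7 are probes of Igf1 (the overlapping probes 2 and 3), Igfbp2, Igfbp3 and Igfbp5 only. The 4 are those of Igf1 (probes 4 and 5), Igf2 and Igf2r. Several probes belong to the same gene, so these are not counts of independent measurements. Within an array, probe 3 minus probe 4 was 0.22, 0.52, 0.31 and 0.41 (mean 0.37 ± 0.13, 95% interval 0.16 to 0.58), with an exact sign-flip permutation p of 0.13, the smallest that 4 arrays allow. Probes 4 and 5 differed by 0.01 ± 0.19. These differences were computed after the values of the probes had been seen, and no mm9 gene annotation was used to place the probes in exons.

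**Figure D3:**
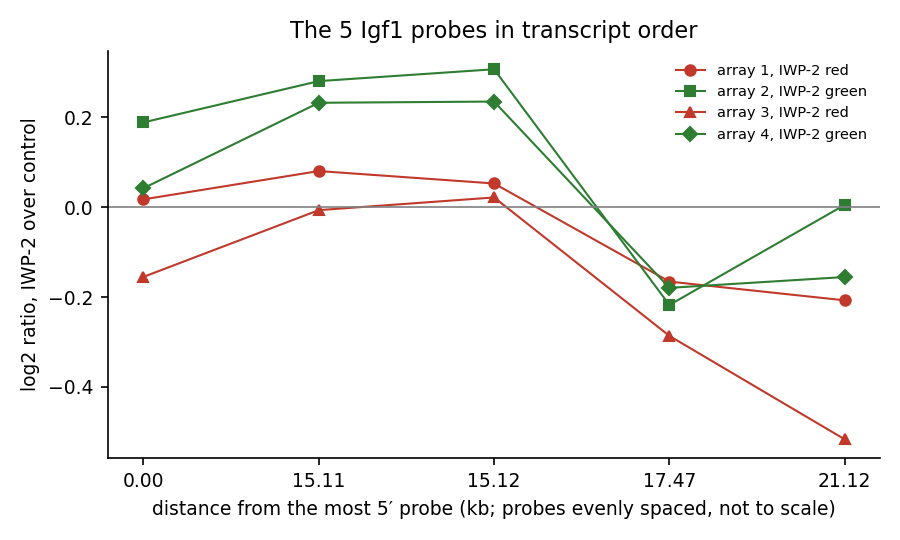
Log2 ratio of IWP-2 over control (y axis) at the 5 Igf1 probes in transcript order (x axis, labelled with the distance in kb from probe 1 and drawn evenly spaced), with a line for each array, red where the treated RNA was red and green where it was green. On each of the 4 arrays the ratio falls between probe 3 and probe 4, by 0.22 to 0.52.

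Of the receptors, Igf2r fell and Igf1r did not pass the test. Igf2r read 15.37, 15.25, 15.49 and 15.24 in the control channel and 15.05, 15.17, 15.07 and 15.05 in the treated channel, without overlap. Its ratios of -0.32, -0.08, -0.42 and -0.19 had a mean of -0.25 ± 0.15 (95% interval -0.36 to -0.15, adjusted p = 0.00637). The Igf2r mean was -0.37 with treated RNA in red and -0.14 with it in green. Its dye term had a limma p of 0.0324 before and 0.231 after adjustment, so a dye effect is not excluded here either. Igf1r, the signalling receptor (probe at mm9 chr7:75378461-75378520, plus strand), had ratios of 0.28, 0.23, -0.10 and 0.46, higher on 3 arrays and lower on array 3. Its mean was 0.22 ± 0.23 (95% interval 0.04 to 0.39, adjusted p = 0.0605). Without array 3 its change was 0.31 (adjusted p = 0.0189), and without array 2 it was 0.28 (adjusted p = 0.0366). Without array 1 it was 0.12 (adjusted p = 0.219), and without array 4 it was 0.16 (adjusted p = 0.181). The calls of Igf2 and Igf2r were lost in the deposited table of fold changes (adjusted p of 0.0904 and 0.0603), with nearly the same size (-0.29 and -0.26).

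Igf2r lies in an imprinted cluster on mouse chromosome 17, in which the antisense RNA Airn is transcribed from the paternal allele and Slc22a2 and Slc22a3, which encode organic cation transporters, are silenced on that allele in extraembryonic tissue. Slc22a3, Slc22a2 and Airn were all lower after IWP-2, as was Igf2r. The lowest ratios were those of Slc22a3, whose probe lies at -262 kb from that of Igf2r, with a mean of -2.29 ± 0.21 (adjusted p = 7.07e-06), from control levels of 10.49 to 10.57 to treated levels of 7.93 to 8.48. Slc22a2 fell as well (-1.20 ± 0.14, adjusted p = 2.67e-05), with -1.85 in the processed signals and -1.86 in the deposited fold changes. Airn fell by 0.58 (-0.58 ± 0.22, adjusted p = 0.00221), and its 4 probes on the opposite strand to the Igf2r probe gave means from -0.58 to -0.72, each lower on all arrays. The Igf2r ratio was closer to 0 than that of Slc22a2 and Slc22a3 on 4 of 4 arrays. Arrays of this kind do not separate the parental alleles.

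**Figure D4:**
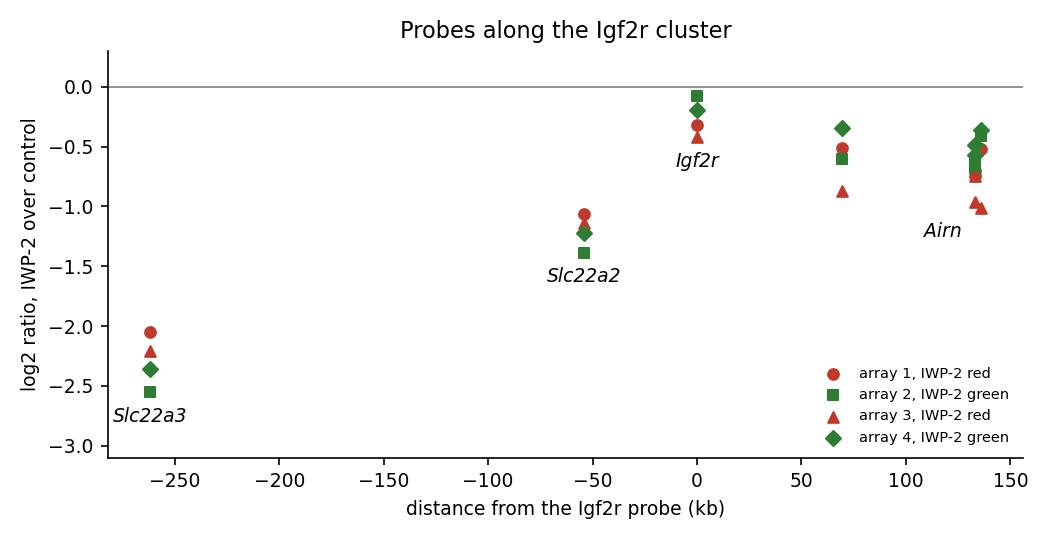
Log2 ratio of IWP-2 over control (y axis) against the distance of each probe from the Igf2r probe in kb (x axis) for Slc22a3, Slc22a2, Igf2r and the 4 probes of Airn, with a point for each array, red where the treated RNA was red and green where it was green. All points lie under 0, those of Slc22a3 between -2.05 and -2.55 and those of Igf2r between -0.08 and -0.42.

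Around Igf2 on chromosome 7, H19, the non-coding RNA that shares enhancers with Igf2 and is expressed from the maternal allele, had a change of 0.07 ± 0.22 and did not pass the test (adjusted p = 0.285), and its second probe gave -0.10 ± 0.05. In the neighbouring imprinted domain Phlda2, a brake on placental growth, fell by 0.61 (-0.61 ± 0.19, adjusted p = 0.000326). There the antisense RNA Kcnq1ot1 fell by 0.51 (-0.51 ± 0.32, adjusted p = 0.000726). The Kcnq1ot1 ratios were -0.26 and -0.22 with treated RNA in red and -0.88 and -0.68 with it in green. Without a dye term in the limma fit its adjusted p was 0.0154. Cdkn1c, a growth-restricting cell cycle inhibitor, was lower as well, and Kcnq1 and Slc22a18 were higher. Igf2os, listed at the Igf2 locus beside H19, did not pass the test (0.002 ± 0.07, adjusted p = 0.972). The list of 10 genes joins the Igf2 and Igf2r loci with the neighbouring Kcnq1ot1 domain. In this list 6 genes were lower and 2 were higher, against 15% and 18.1% of all genes tested, with a median of -0.35. Among 8 measured imprinted growth genes elsewhere, Rasgrf1 (-0.75 ± 0.15, adjusted p = 0.000253, and -1.23 with offset 0 and -1.60 with processed signals) and Mest were lower and Dlk1 (0.52 ± 0.08, adjusted p = 0.000467) and its neighbour Meg3 were higher, with a median of 0.06.

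Proteases that release IGFs from their carriers, and the inhibitors of these proteases, were changed in both directions. Pappa, the metalloproteinase that cuts IGFBP4 and IGFBP5, read 13.44, 13.04, 13.38 and 13.18 in control and 12.75, 12.12, 12.13 and 12.26 in treated ureters. It fell on every array (-0.70, -0.92, -1.24 and -0.92, mean -0.94 ± 0.23, adjusted p = 0.000665), a 1.92-fold decrease that is larger in size than that of any member. Htra1, a secreted serine protease that cleaves IGFBP5, fell by 0.52 (-0.52 ± 0.12, adjusted p = 0.00107). Adam12, a metalloproteinase active on IGFBP3 and IGFBP5, rose by 0.52 ± 0.11 (adjusted p = 0.000991). The related protease Pappa2 and the stanniocalcin Stc2, an inhibitor of PAPPA, were lower too, and Ctsd was higher. Thus 4 of the 9 genes were lower and 2 were higher (median -0.04), against 15% and 18.1% of all genes tested.

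The lists of other ligands, receptors and carriers and of the signalling relay held none of the 10 largest changes in the lists. Of 7 measured genes on the list of other ligands, receptors and carriers, Insrr, Igfbpl1 and Esm1 were higher and 0 were lower (median 0.18). Insr did not pass (0.18 ± 0.25, adjusted p = 0.0591), nor did Igfbp1, the neighbour of Igfbp3 (0.14 ± 0.15, adjusted p = 0.0946). Igfals, which encodes the acid-labile subunit of the circulating complex, was not well above background, and the array had no probe named Insl3. Of 25 genes of the receptor adaptors and the PI3K-AKT relay, 7 were lower, among them Irs1, Gab1, Pik3r1, Pik3r3 and Foxo1, and 7 were higher, among them Irs2, Shc1, Grb14, Pik3cb and Tsc1, with a median of 0.02. The FOXO target genes Sesn3, Bcl6 and Bcl2l11 were higher and 6 others did not pass (median 0.07), and of 3 IGF2 mRNA-binding proteins Igf2bp3 was higher. A second probe of Bcl2l11, also well above background, did not pass (0.004 ± 0.06, adjusted p over all probes = 0.948). Over these 7 lists together, 19 of 71 genes were lower and 20 were higher, with a median of 0.04. Beside all counts of this paragraph stands the share over all genes tested, of which 15% were lower and 18.1% were higher.

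**Figure D5:**
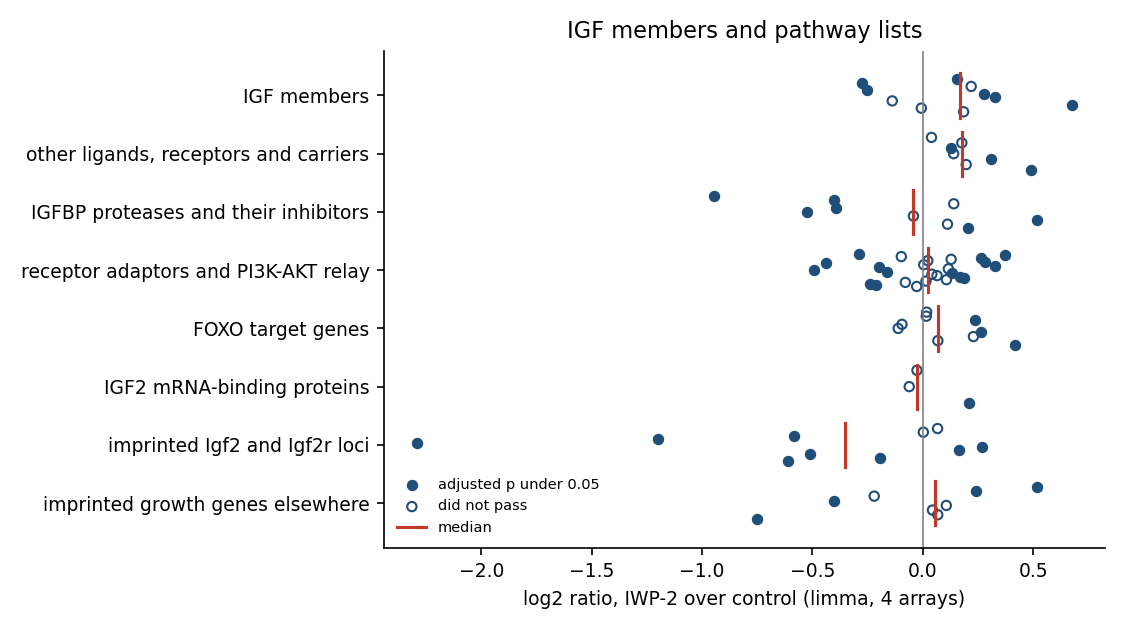
Log2 ratio of IWP-2 over control from limma (x axis) for the genes of the member list and of 7 pathway lists (rows), filled where the adjusted p was under 0.05 and open otherwise, with the median of each list as a red line. The median lies near 0 for most lists (0.02 for the adaptors and the relay) and at -0.35 for the imprinted Igf2 and Igf2r loci. That last list also holds genes of the neighbouring Kcnq1ot1 domain.

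The 250 bases before the annotated start were read from RefSeq (GRCm38.p6) for all 10 members, which have 14 such windows. They were searched on both strands for the letters of the TCF/LEF motif, the site at which WNT effectors bind (CTTTG and after it AA, AT, TA or TT), and for the forkhead motif of FOXO factors (GTAAACA). Matches to the TCF/LEF letters stood in the window of Igf1, at -186 and -116 from the annotated start, against 14.8% of all 32817 windows with at least 1 match. The forkhead letters had 0 matches in the member windows and were in 3.16% of all windows. The window of Igf1 is shown with its matches in capitals, beside those of Igfbp5 and Igfbp3, the members with the largest increases.
Igf1, chr10:87860861-87861110, plus strand: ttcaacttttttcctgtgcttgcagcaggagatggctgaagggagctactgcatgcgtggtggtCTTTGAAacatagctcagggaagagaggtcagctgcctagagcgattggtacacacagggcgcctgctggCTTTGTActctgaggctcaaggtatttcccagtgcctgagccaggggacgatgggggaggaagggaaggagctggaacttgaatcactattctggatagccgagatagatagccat
Igfbp5, chr1:72874866-72875115, minus strand: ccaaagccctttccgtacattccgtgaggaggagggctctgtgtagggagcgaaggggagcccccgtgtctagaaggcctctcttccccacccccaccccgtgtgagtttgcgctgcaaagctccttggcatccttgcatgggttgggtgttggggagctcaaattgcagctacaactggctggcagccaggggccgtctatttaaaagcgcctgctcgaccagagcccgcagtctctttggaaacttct
Igfbp3, chr11:7213924-7214173, minus strand: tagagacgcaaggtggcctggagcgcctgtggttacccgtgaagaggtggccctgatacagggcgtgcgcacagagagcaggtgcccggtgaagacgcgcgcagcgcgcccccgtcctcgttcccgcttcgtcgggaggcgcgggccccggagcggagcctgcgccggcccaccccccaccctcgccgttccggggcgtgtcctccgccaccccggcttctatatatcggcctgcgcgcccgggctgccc
The share of G and C in these windows was 52.8% for Igf1, 58.8% for Igfbp5 and 73.2% for Igfbp3. A match of letters is a description and not a binding site, and a window without a match says only that these letters are not in it.

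No member passed a filter after that of the study, applied here to all 4 arrays, which asks for an intensity over 100 and a change of over 2-fold on each array. Across the 29924 genes, 0.348% were lower and 0.0735% were higher by that filter. With 1.5-fold on each array, still 0 of the 10 members passed, Igfbp5 included, whose change on array 3 was 0.43.

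The treatment was seen in the WNT feedback target Axin2 (-1.56 ± 0.09, adjusted p = 1.22e-05), and all 7 listed targets of this kind were lower. A second, dimmer Axin2 probe gave -0.59 ± 0.08 (adjusted p over all probes = 0.000287). Of the marker lists of other cell types, 7 of 7 epithelial genes were higher (median 0.30, summed log2 intensity 17.46 to 17.57 in control and 17.65 to 17.96 in treated channels) and 6 of 6 smooth muscle genes were lower (median -0.65, 14.93 to 15.48 and 14.26 to 14.79). Endothelial genes (15.67 to 15.88 in control and 15.86 to 16.09 in treated channels), blood genes (18.11 to 18.72 and 18.63 to 18.80) and macrophage genes (13.77 to 14.10 and 14.04 to 14.28) were higher in 4 of 6 each, with medians of 0.19, 0.27 and 0.18. The blood median was 0.36 and 0.45 on arrays 1 and 3, with treated RNA in red. It was 0.06 and 0.10 on arrays 2 and 4, with treated RNA in green. Nephron progenitor genes were higher in 5 of 6 and lower in 1 (median 0.22), neural genes were higher in 2 of 6 (median 0.15), and mesenchymal genes had a median of 0.02 with 1 higher and 1 lower of 6. Every measured gene of these lists was well above background. Of all genes tested, 18.1% were higher and 15% were lower by the same rule. The increases of Igfbp2 (0.28) and Igfbp3 (0.33) were near the epithelial (0.30) and blood (0.27) medians. That of Igfbp5 (0.68) was above the median of every marker list. Single genes reached 0.80 in the mesenchymal list and 1.14 in the nephron progenitor list. The part that a shift between cell types had in the changes of the IGF genes was not tested.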

How the data were processed

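Each of the 4 arrays carried 1 treated and 1 control pool, and the labels number them as 4 replicates. The authors scanned them (all on 1 slide, in 1 scan) with Agilent Feature Extraction 10.7.3.1, and the deposited files give raw mean and local background intensity for each spot and channel, probe positions on mm9 and probe sequences. They also give a processed intensity, which per the file headers was background-subtracted, detrended and dye-normalised. The deposited log10 ratio of processed red over green signal was used only to check the direction (r of 0.935 to 1). The table the authors deposited with the series holds a signed fold change per probe, treated here as a score since its normalisation is not stated. Its direction was set by its correlation with the processed signals (r of 0.986 to 0.991), and it served as an alternative.

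Raw intensities were corrected with normexp (offset 50) and normalised by loess within arrays (span 0.3) in limma 3.58.1 (R 4.3.3). Control spots and outlier spots (3.01% to 3.38%) were left out, 0 gene spots were saturated, and the spots of a probe were averaged. Genes entered the test when over 0.5 of a probe's spots passed the scanner software's background test on 4 arrays, either in the control or in the treated channel, and the brightest such probe stood for the gene. Log2 ratios were fitted with a term for treatment and one for dye, and limma p-values (two-sided) were adjusted by Benjamini-Hochberg over 22455 genes, or over 29933 probes for single probes, with a threshold of 0.05. The dye term called 0 genes (lowest adjusted p = 0.122, 4233 at an unadjusted p under 0.05). Channel levels are log2 intensities after loess and Aquantile scaling, and between 75.1% and 80.0% of probes were above background in a channel. The 4 arrays limit the precision. Differences between paralogues were tested by exact sign flips over arrays in Python 3.11.15.

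Named were all members with every probe, the genes of the pathway lists that passed the test (with values for the 10 of largest size), list genes not above background, and Axin2. Some genes of the signalling list are not reported here by name. H19, Igf2os, Insr, Igfbp1 and a second probe of Bcl2l11 were named with values although they did not pass, after their values were seen. The members and lists were chosen with earlier results of these data known. Alternatives tried were processed signals, offset 0, median centring, scaling between arrays, no dye term, unpaired channels, other filters, the mean of a gene's probes, the deposited fold changes and leaving out each array.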

Additional observations from a re-analysis of the deposited data

Results flagged for a closer look

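For Igfbp6, the ratio on array 3 (0.3073) stood apart from those on arrays 1, 2 and 4 (-0.08, -0.13 and -0.13), by a gap that took up most of the range of the 4 values. The treated channel of array 3 read 8.09, against 7.45 to 7.61 on the other arrays, and the control channel read 7.78, against 7.58 to 7.73. It was the only one of 21 genes examined in this way, of which chance alone would mark about 1 (1.05). Without array 3 the change of Igfbp6 was -0.10 (adjusted p = 0.206) and without array 1 it was 0.09 (adjusted p = 0.257).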

How the results depend on the processing

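Igfbp3 and Igfbp5 kept their direction and their call, and Igfbp4 stayed without one, under all 14 alternatives. Igf1 lost its call in 7 and turned to -0.0215 with the mean of a gene's probes. Without the pairing of channels by array (no replicate block), 2 members were higher in place of 4, and 2054 genes were lower and 2038 higher in place of 3360 and 4068. In the deposited table of fold changes 0 members were lower in place of 2, and 2050 genes were lower and 1833 higher. Its values are rounded and its normalisation is unknown, and the cause was not tested. Airn lost its call there too. Without 1 array each, 2180 (without array 3) to 2813 genes were lower and 2878 to 3345 higher, and 2 members were lower and 3 to 4 higher. The higher members were not the same set, since Igf1 lost its call in each of these runs. Igfbp2, Igfbp3 and Igfbp5 stayed, joined by Igfbp7 without array 1 and by Igf1r without array 2 or array 3. The paralogue pairs with 1 direction on all arrays were 4 with processed signals and 5 with median centring in place of 9, and 9 to 11 without 1 array. The filter on intensity and fold took 206 lower and 108 higher genes at 1.5-fold in place of 104 and 22. Across all settings the median over all genes was -0.011 to 0.007. Igfbp6 was too dim for the filter at a mean processed signal over 100. A term for slide or scan was not run, since all arrays share both.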
